A study of Mus musculus with 6 samples.

Results

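The 10 genes described here, of iron storage and transport, heme breakdown and metal binding, were measured in whole lenses of mice lacking Cd24a and of wild-type mice. They are Trf, Tfrc, Fth1, Ftl1, Cp, Ireb2, Hmox2, Blvrb, Mt1 and Mt2, taken by symbol from the deposited count table, where each of the 10 has a single row among 55416 genes. The knockout group carried a germline knockout of Cd24a, which encodes a small surface glycoprotein, and its strain label is C57BL/6. The other group was wild type with the strain label C57BL/har, so strain and genotype cannot be told apart. Each group held 3 samples of 2 pooled lenses, described as biological replicates, aged 8 weeks by the labels and 7 weeks by the design text. RNA was read as ribosome-depleted, stranded total RNA.

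Iron circulates bound to transferrin (Trf), enters cells through the transferrin receptor (Tfrc) and is stored inside ferritin, a shell built of heavy (Fth1) and light (Ftl1) chains. Iron regulatory proteins, one of them encoded by Ireb2, bind a stem-loop in these mRNAs when iron is scarce, which blocks ferritin translation and protects the Tfrc mRNA from decay. Heme oxygenases open the heme ring and release its iron, and metallothioneins bind zinc and copper. In the lens, ferritin and ceruloplasmin are known for keeping reactive iron low in a tissue that is constantly exposed to light and oxidants.

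Of the 10 genes, 3 share that stem-loop, the iron-responsive element, which is shown here because it links Tfrc to the ferritin chains. Protein-coding transcripts of GENCODE M21 (build GRCm38, another build than that of the counts) were searched on the transcript strand for CNNNNNCAGTGN followed by bases that pair with the stretch of N before the loop, and for at least 3 of 5 pairs in the stem below. A match occurred in 95 of 21901 protein-coding genes (0.434%). Fth1 and Ftl1 each had 1 match in the 5′ UTR, Tfrc had 4 in the 3′ UTR, and the search found none in the other members, which says only that these letters are not in their M21 transcripts. Elements with other pairing or another loop would be missed, so the matches need not be all elements of a gene. Capitals mark the bulged C and the loop. The Fth1 element lies at chr19:9982733-9982759 on the plus strand, the Ftl1 element at chr7:45459780-45459806 on the minus strand, and the Tfrc elements between chr16:32631220-32631246 and chr16:32631711-32631737 on the plus strand.
Fth1: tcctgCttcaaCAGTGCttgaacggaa
Ftl1: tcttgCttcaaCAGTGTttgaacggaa
Tfrc element 1: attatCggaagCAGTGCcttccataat
Tfrc element 2: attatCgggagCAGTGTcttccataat
Tfrc element 3: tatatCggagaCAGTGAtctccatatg
Tfrc element 4: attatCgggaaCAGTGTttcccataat
The ferritin elements differed from each other by C3T and C17T, with the Fth1 base first and positions counted from 1 at the 5′ end. Of the Tfrc elements, 3 begin with the same run of letters, attatC.

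The libraries held 5384542 to 5966090 gene counts in the knockout group and 6262742 to 7302951 in the wild-type group. Cd24a itself had 45 to 71 counts in the knockout libraries and 17514 to 20656 in the wild-type libraries, in step with the labels. Of 10 lens fibre markers 9 were detected, Lim2 being listed at 0, and they summed to 182596 to 208076 CPM (the counts of a gene relative to its scaled library size) in the knockout and 202367 to 212200 CPM in wild type. Xist reads were abundant in replicate 3 of each group (2466 counts in the knockout, 2191 in wild type) and at most 4 elsewhere, a female pattern in 1 library of each group.

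Of the 10 genes, 2 passed the test for a genotype difference, Fth1 upward and Trf downward, both with no overlap between the groups. Of the members 8 had enough counts to be tested, and 1 was called higher and 1 lower at an adjusted p of at most 0.05, or 12.5% each. Over all 11474 genes tested, 7.5% were called in either direction, 3.02% higher and 4.48% lower, and in 24.4% the groups did not overlap. The 2 members of 8 without overlap are near that last share, and with 8 genes nothing particular to them is read from the counts. The median log2 fold change was -0.05 over the 8 members and 0.004 over all genes tested.

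**Figure D1:**
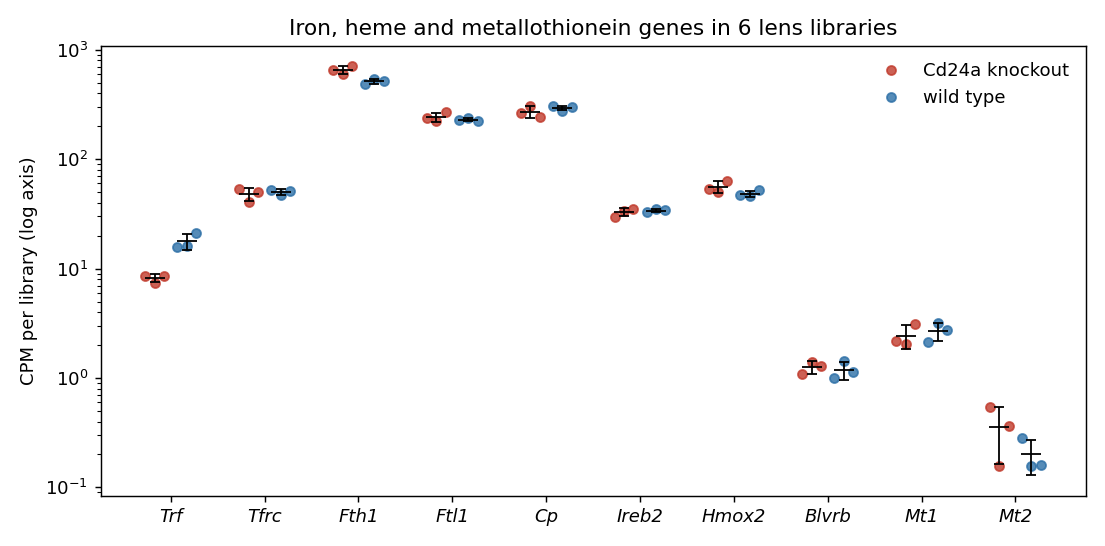
CPM (log axis) of the 10 genes in each library, knockout in red and wild type in blue. Points are libraries, bars are the mean and SD (n = 3 each). Trf in the knockout (7.36 to 8.64 CPM) lies below wild type (15.8 to 21.2 CPM), and Fth1 (599 to 705 CPM) above wild type (489 to 538 CPM), while the other genes overlap between the groups.

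Trf (ENSMUSG00000032554, chromosome 9), the iron carrier of blood and extracellular fluid, had lower RNA in lenses without Cd24a. It had 48, 47 and 47 counts in the knockout libraries and 111, 102 and 131 in the wild-type libraries, which are 8.63, 7.36 and 8.64 CPM in the knockout against 15.8, 16.1 and 21.2 CPM in wild type. Every knockout library lay below every wild-type library, and wild-type replicate 3 was the highest. The mean was 8.21 ± 0.74 CPM in the knockout and 17.7 ± 3.02 CPM in wild type (SD, n = 3 each). Trf fell by 1.11 on the log2 scale (SE 0.16, edgeR quasi-likelihood adjusted p = 1.03e-04), to 0.464 of the wild-type level (95% interval 0.367 to 0.588). In the authors' deposited table the signed fold change of Trf is -2.15 with a q-value of 5.15e-08.

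Some markers of pigment cells, the lens epithelium, lens fibres, the retina and the cornea were also lower in the knockout libraries. Beside the counts of called markers below, 4.48% of all genes tested were called lower and 3.02% higher. In 24.4% of all genes tested the groups did not overlap, and no marker list was tested as a set. The 10 pigment epithelium and pigment cell markers, none of them at 0, summed to 37.6, 25.7 and 38.3 CPM in the knockout libraries and 51.1, 60.3 and 75.7 CPM in the wild-type libraries. Of the 6 tested, 4 were called lower and 0 higher. Rlbp1 (log2 -0.85, edgeR adjusted p = 0.13) and Dct (log2 0.13, edgeR adjusted p = 0.88) were not called. The markers with the most counts were Ttr and Oca2. Ttr, a carrier of thyroxine and retinol, had a mean of 9.24 CPM in the knockout and 19.9 CPM in wild type. Oca2, a melanosomal protein, had 9.43 CPM in the knockout and 14.6 CPM in wild type. The 8 lens epithelium markers summed to 1210 to 1252 CPM in the knockout and 1493 to 1597 CPM in wild type, with 4 of 8 called lower and 0 higher. Igfbp7, a secreted binding protein, made up most of that sum, at 746 CPM in the knockout and 944 CPM in wild type, and was called lower. The lens epithelium transcription factor genes Pax6 (log2 0.02, edgeR adjusted p = 0.89) and Foxe3 (log2 0.05, edgeR adjusted p = 0.88) were not called. Of the 9 lens fibre markers tested, 3 were called lower and 0 higher, although the summed fibre markers overlapped between the groups. The lower ones were Bfsp2 (log2 -0.27, edgeR adjusted p = 0.0028), Crygs (log2 -0.37, edgeR adjusted p = 2.83e-04) and Birc7 (log2 -0.97, edgeR adjusted p = 4.66e-09). The summed photoreceptor markers overlapped, at 152 to 268 CPM in the knockout and 164 to 407 CPM in wild type. All 7 tested photoreceptor markers had negative log2 fold changes, from -0.84 to -0.58, and 1 was called lower, the rod transducin gene Gnat1 (log2 -0.82, edgeR adjusted p = 0.039). Those of cornea and conjunctiva, with Krt12 and Kera at 0, summed to 56.9 to 75.4 CPM in the knockout and 83.9 to 94.8 CPM in wild type, nearly all of it Aldh3a1. Sums of Müller glia and astrocyte markers overlapped, at 1347 to 1828 CPM in the knockout and 1570 to 1659 CPM in wild type, most of it Dkk3 (log2 -0.005). Of the 6 tested in that list 1 was called lower, Gfap, an intermediate filament of glia, at 3.55 CPM in the knockout and 9.80 CPM in wild type (log2 -1.44, edgeR adjusted p = 5.46e-04). Vascular endothelium markers summed to 3.24 to 6.74 CPM in the knockout and 2.37 to 4.70 CPM in wild type, with none tested. The part of these cell types in the Trf difference was not tested. In whole lenses, fewer cells of a type and less RNA per cell cannot be told apart.

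**Figure D2:**
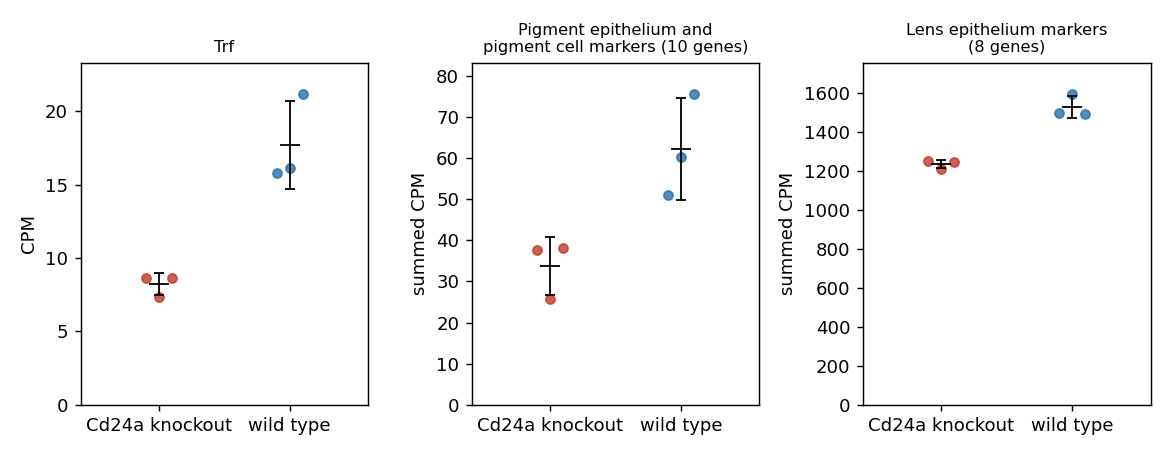
Trf (CPM, left), 10 pigment epithelium and pigment cell markers (summed CPM, middle) and 8 lens epithelium markers (summed CPM, right), knockout in red, wild type in blue. Points are libraries in the order of replicates 1 to 3, bars the mean and SD (n = 3 each). In each panel all 3 knockout libraries lie below the wild-type libraries. The cornea and conjunctiva sum, not drawn, also separated this way. Sums of lens fibre, photoreceptor, glia, leukocyte and endothelium markers overlapped, and the erythroid sum was higher in the knockout.

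The genes whose log2 CPM followed Trf most closely over the 6 libraries were Slc12a2 (Pearson r = 0.993), Plekhg1 (r = 0.992) and Sema3d (r = 0.991), given as a description. The correlation spans both genotypes and so includes the group difference of Trf, and all 3 were called lower. Slc12a2, a sodium-potassium-chloride cotransporter, averaged 68.3 CPM in the knockout and 90.8 CPM in wild type. Sema3d, a secreted semaphorin, averaged 14.5 CPM in the knockout and 24.98 CPM in wild type.

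In contrast to its ligand, the receptor gene Tfrc (ENSMUSG00000022797, chromosome 16) did not pass. It had 53.8, 40.9 and 50.2 CPM in the knockout and 52.1, 46.7 and 51.6 CPM in wild type. The groups overlapped, with knockout replicate 2 the lowest library. Its log2 fold change was -0.06 (SE 0.10, edgeR adjusted p = 0.80), with a 95% interval of -0.26 to 0.14. Within each library, Tfrc had 6.23, 5.55 and 5.81 counts per Trf count in the knockout and 3.30, 2.90 and 2.44 in wild type. This ratio does not depend on how libraries are scaled, and it averaged 5.86 ± 0.34 in the knockout and 2.88 ± 0.43 in wild type (SD, n = 3 each, exact permutation p = 0.10, two-sided, the smallest this design allows).

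Fth1 (ENSMUSG00000024661, chromosome 19), the ferritin heavy chain, which carries the ferroxidase activity of ferritin, rose in the knockout. It had 3619, 3826 and 3835 counts in the knockout libraries and 3435, 3410 and 3217 in the wild-type libraries. Scaled, these were 651, 599 and 705 CPM in the knockout and 489, 538 and 520 CPM in wild type. The lowest knockout library lay above the highest wild-type library. The mean was 652 ± 53.0 CPM in the knockout and 516 ± 24.8 CPM in wild type (SD, n = 3 each). The log2 fold change was 0.34 (SE 0.06, edgeR adjusted p = 0.0012), a 1.26-fold higher level with a 95% interval of 1.15 to 1.38. The authors' deposited table gives Fth1 a fold change of 1.26 and a q-value of 2.65e-04.

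Ftl1 (ENSMUSG00000050708, chromosome 7), the light chain, which favours mineral formation inside the shell, did not pass. It had 238, 222 and 267 CPM in the knockout and 227, 240 and 223 CPM in wild type, with knockout replicate 2 lowest and knockout replicate 3 highest. Its log2 fold change was 0.08 (SE 0.07, edgeR adjusted p = 0.60, 95% interval -0.06 to 0.21). Within libraries, Fth1 had 2.74, 2.70 and 2.64 counts per Ftl1 count in the knockout and 2.15, 2.24 and 2.33 in wild type. The ratio averaged 2.69 ± 0.05 in the knockout and 2.24 ± 0.09 in wild type (SD, n = 3 each), and the groups did not overlap (exact permutation p = 0.10, two-sided, the smallest this design allows, which does not pass 0.05). Of 3 such ratios tested, each had an exact permutation p = 0.10, also after Benjamini-Hochberg adjustment.

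**Figure D3:**
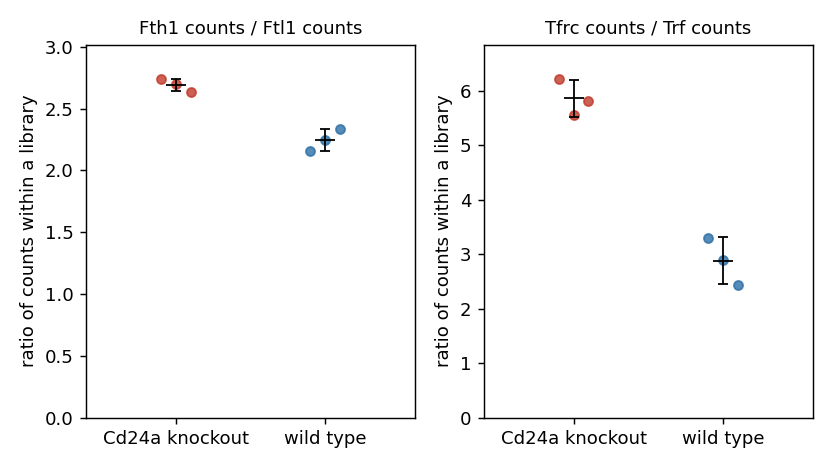
Ratio of Fth1 to Ftl1 counts (left) and of Tfrc to Trf counts (right) within each library, knockout in red and wild type in blue, with mean and SD (n = 3 each). Fth1 had 2.64 to 2.74 counts per Ftl1 count in the knockout and 2.15 to 2.33 in wild type.

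Reads of the ferritin genes can also fall on processed copies. The 3 Ftl1-like pseudogenes together held 143 counts in the knockout and 167 in wild type, which is 3.41% of the Ftl1 counts in the knockout and 3.72% in wild type. Ftl1-ps1 alone held 138 of them in the knockout and 159 in wild type. The 6 pseudogenes whose symbol starts with Fth held 24 counts in the knockout and 21 in wild type. That is 0.213% of the Fth1 counts in the knockout and 0.209% in wild type. Among the 6, Fthl17-ps1, Fthl17-ps2 and Fthl17-ps3 are copies of the Fthl17 family, at 0 counts. Copies under other symbols were not searched, so the shares of both genes could be higher. The sources used here do not give how reads that match several copies were counted, so the Ftl1 level is the less certain of the pair.

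Red blood cells carry ferritin and heme enzymes, and their markers had very few counts. The 8 erythroid markers summed to 1.097 to 6.66 CPM in the knockout and 0 to 0.285 CPM in wild type, with Slc4a1 and Epb42 among those at 0 in all 6 libraries. None of the list had enough counts for the test, the one with the most counts being Hbb-bs, an adult β-globin, at 1.89 CPM in the knockout and 0 in wild type, followed by Hbb-bt at 0.536 CPM in the knockout and 0 in wild type. Macrophage and leukocyte markers summed to 4.32 to 9.40 CPM in the knockout and 6.16 to 12.1 CPM in wild type. Their part in the Fth1 difference was not tested.

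Cp (ENSMUSG00000003617, chromosome 3) encodes ceruloplasmin, a copper ferroxidase that helps iron leave cells. It had 263, 309 and 241 CPM in the knockout and 304, 278 and 298 CPM in wild type, and knockout replicate 2 was the highest of all 6 libraries. The log2 fold change was -0.11 (SE 0.07, edgeR adjusted p = 0.44, 95% interval -0.26 to 0.04). Ireb2 (ENSMUSG00000032293, chromosome 9), which encodes an iron regulatory protein, had 29.9, 33.4 and 35.1 CPM in the knockout and 32.8, 34.9 and 34.1 CPM in wild type. Its wild-type values lay inside the knockout range, and its log2 fold change was -0.05 (SE 0.09, edgeR adjusted p = 0.84, 95% interval -0.24 to 0.15).

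Hmox2 (ENSMUSG00000004070, chromosome 16), the constitutive heme oxygenase, had 54.0, 49.7 and 63.3 CPM in the knockout and 46.9, 46.1 and 52.1 CPM in wild type. The groups overlapped, since knockout replicate 2 lay below wild-type replicate 3. Its log2 fold change was 0.20 (SE 0.09, edgeR adjusted p = 0.22), with a 95% interval of 0.01 to 0.39. With libraries scaled by total counts alone the value was 0.31 (adjusted p = 0.041), a call that the other settings did not give. In M21, 40.2% of the Hmox2 exon bases lie under exons of Cdip1 on the opposite strand, and whether counting used strand is not stated, so its reads may include some from Cdip1 (log2 fold change 0.04, edgeR adjusted p = 0.89).

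Hmox1, the inducible heme oxygenase, was lower in the knockout. It averaged 181 ± 17.5 CPM in the knockout and 622 ± 44.7 CPM in wild type (SD, n = 3 each), a log2 fold change of -1.79 (edgeR adjusted p = 2.94e-13). Lenses held 3.26 ± 0.09 Hmox1 counts per Hmox2 count in the knockout and 13.0 ± 1.74 in wild type (exact permutation p = 0.10, two-sided, the smallest possible). Blvrb (ENSMUSG00000040466, chromosome 7), a biliverdin reductase, was too scarce to test, with 6, 9 and 7 counts in the knockout and 7, 9 and 7 in wild type. Fitted with no low-count filter, its log2 fold change was 0.10 with a 95% interval of -0.92 to 1.13. At this depth the counts allow any difference inside that interval. The other biliverdin reductase gene, Blvra, had enough counts for the test and was not called. It averaged 14.7 CPM in the knockout and 12.8 CPM in wild type (log2 0.21, edgeR adjusted p = 0.51).

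Metallothioneins had few counts in both genotypes. Mt1 (ENSMUSG00000031765, chromosome 8) had 12, 13 and 17 counts in the knockout and 15, 20 and 17 in wild type, or 2.16, 2.04 and 3.13 CPM against 2.14, 3.16 and 2.75 CPM. The groups overlapped, and the log2 fold change was -0.14 (SE 0.34, edgeR adjusted p = 0.88, 95% interval -0.85 to 0.58). Mt2 (ENSMUSG00000031762, chromosome 8) was nearly undetected, with 3, 1 and 2 counts in the knockout and 2, 1 and 1 in wild type. No fold is given for Mt2, which stood at or under 3 counts in every library. The neighbouring family members were as low, Mt3 with 0 counts in the knockout and 3, 0 and 1 in wild type, and Mt4 with 0 throughout. A count of 0 allows up to 3 counts, or 0.427 to 0.552 CPM in these libraries.

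**Figure D4:**
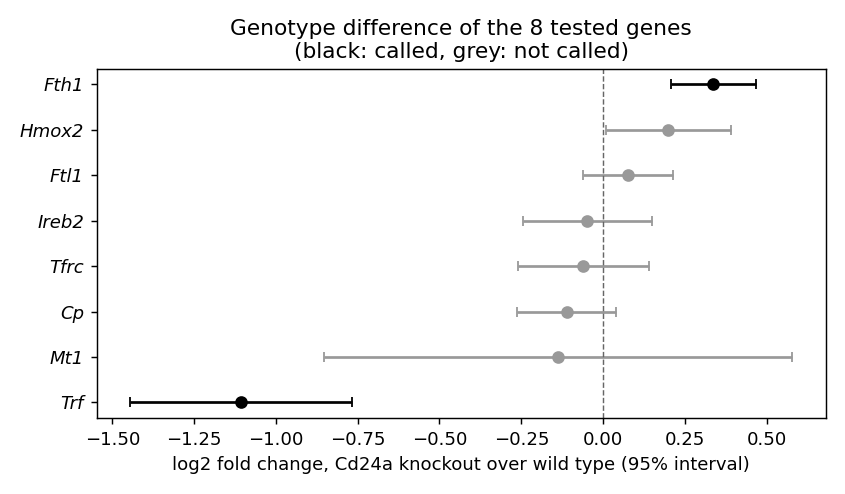
Log2 fold change of the 8 tested genes, knockout over wild type, with 95% intervals from the edgeR fit (3 libraries per group). The intervals of the called genes Fth1 (0.21 to 0.47) and Trf (-1.45 to -0.77) are drawn in black. Those of the other genes are grey, and the Mt1 interval is the widest.

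Levels spanned a wide range between genes once divided by length. Per kb of the deposited exon length, Ftl1 averaged 176 CPM per kb over the 6 libraries and Fth1 168, and their ranges overlapped. Within wild type, Ftl1 (166 to 179) lay above Fth1 (141 to 155). Within the knockout, Ftl1 (166 to 200) and Fth1 (173 to 203) overlapped. Cp followed at 29.5 and Hmox2 at 23.4 CPM per kb, also with overlapping ranges, then Tfrc at 7.96. Trf at 3.90 and Ireb2 at 3.52 CPM per kb overlapped over the 6 libraries, but their order differed by genotype. Trf (4.76 to 6.38) lay above Ireb2 (3.46 to 3.68) in wild type. In the knockout, Trf (2.22 to 2.60) lay below Ireb2 (3.15 to 3.71). Mt1 stood at 2.06, and Mt2 at 0.473 and Blvrb at 0.439 overlapped at the bottom. The deposited exon length of Fth1, 3469 bp, is longer than its longest coding transcript in M21, 1494 bp. Per kb of the longest coding transcript, a length chosen after seeing the data, Fth1 was first at 391 CPM per kb (range 327 to 472) and Ftl1 second at 244 (range 230 to 276). Under that length the mean of Ireb2 stood above that of Trf and the mean of Blvrb above that of Mt2. Both pairs overlapped over the 6 libraries, Ireb2 at 5.17 to 6.09 and Trf at 2.86 to 8.24. Blvrb ran from 0.970 to 1.38 and Mt2 from 0.307 to 1.06. The genes closest to Ftl1 in log2 CPM over the 6 libraries were Rpl28 (Pearson r = 0.989), Mcm6 (r = 0.986) and Akr7a5 (r = 0.975), and none of them was called.

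The wider pathway was read from 10 lists of iron, heme, zinc and copper genes, which hold 126 genes besides the members. Of these, 92 had enough counts to be tested, and 4 were called lower and 0 higher by edgeR, or 4.35% lower against 4.48% of all genes. DESeq2 called 2 lower and 0 higher, limma-voom 3 lower and 0 higher, and before adjustment 7 were higher and 8 lower at 0.05. Over all genes, 2320 of the 11474 tested were at or under 0.05 before adjustment, and the unadjusted counts of the lists below stand beside that share. The median log2 fold change of the 92 pathway genes was -0.01, against 0.004 over all genes tested.

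Beside Hmox1, the lower genes were Epas1, Hfe and Pcbp1. Epas1, the hypoxia-inducible factor 2α, which activates iron uptake genes, averaged 4.34 ± 1.79 CPM in the knockout and 8.79 ± 0.45 CPM in wild type (log2 -1.02, SE 0.24, edgeR adjusted p = 0.011). Its call was lost without knockout replicate 1 (log2 -0.79, adjusted p = 0.084) or wild-type replicate 1 (adjusted p = 0.057). Hfe, a partner of the transferrin receptor, averaged 15.2 ± 1.19 CPM in the knockout and 20.7 ± 2.72 CPM in wild type (log2 -0.45, edgeR adjusted p = 0.037). Pcbp1, a chaperone that delivers iron to ferritin, averaged 73.2 ± 2.67 CPM in the knockout and 87.0 ± 2.53 CPM in wild type (log2 -0.25, edgeR adjusted p = 0.024). The Pcbp1 call was lost when any 1 library was left out (adjusted p up to 0.095) and without both libraries with abundant Xist reads (0.124). It was also lost under DESeq2 (0.096), with no low-count filter (0.064), and with library size alone, where log2 was -0.14 (adjusted p = 0.232). The Hfe call was lost under DESeq2 (adjusted p = 0.178), limma-voom (0.051), library size alone (0.098) and when replicates 1 or 2 of either genotype were left out (up to 0.175).

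Of the 8 tested genes of iron storage and chaperones, Fth1 was the 1 called higher and Pcbp1 the 1 called lower, and of the 4 tested genes of heme breakdown Hmox1 was the 1 called, lower. The iron uptake list had 6 tested genes, of which Trf was the 1 called, and the endosomal sorting protein Snx3, the most abundant of them per kb, had a log2 fold change of 0.005. Among 3 tested genes of iron export 0 were called, whether by edgeR, by DESeq2 or by limma-voom, and 1 was under 0.05 before adjustment. Heph, a membrane relative of ceruloplasmin, was that gene, at 20.8 ± 0.15 CPM in the knockout and 25.7 ± 1.64 CPM in wild type (log2 -0.30, edgeR adjusted p = 0.091). Slc40a1, the iron exporter ferroportin, had a log2 fold change of 0.05, with a 95% interval of -0.52 to 0.63. The hormone gene Hamp and the mitochondrial ferritin gene Ftmt had 0 counts. Of the 10 tested genes of iron sensing, 2 were called lower, Epas1 and Hfe. The most abundant per kb were the ubiquitin ligase subunit gene Skp1 (log2 -0.05) and the mitochondrial iron-sulfur protein gene Cisd1 (log2 -0.08), and neither was called.

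Heme synthesis genes all had enough counts for the test except Alas2, the erythroid form of the first enzyme. Of 10 tested, edgeR, DESeq2 and limma-voom each called 0, and 1 was under 0.05 before adjustment. Fold changes ran from -0.26 (Alad) to 0.31 (Cpox) on the log2 scale. The most abundant per kb were Alad and Tmem14c, a mitochondrial carrier of heme precursors (log2 0.06). Of 9 heme transport and binding genes 0 were called by the 3 tools, and 0 were under 0.05 before adjustment. Hebp2, a heme-binding protein, had a log2 fold change of -0.07, and Pgrmc1, a heme-binding membrane protein, one of -1.12e-04.

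Mitochondrial iron and iron-sulfur assembly genes had 0 calls of 23 by edgeR, DESeq2 and limma-voom, with 4 higher and 1 lower under 0.05 before adjustment. Over all genes, 2320 of 11474 were so before adjustment, and nothing particular to this list is read from its counts. The median log2 fold change of the list was 0.09. The most abundant per kb were Hspa9, a mitochondrial chaperone (log2 -0.13), and Ciao2a, a cytosolic iron-sulfur assembly factor (log2 0.28). Among 17 tested genes of the metallothionein and zinc list, Mt1 included, 0 were called by these 3 tools and 0 were under 0.05 before adjustment. The zinc transporters Slc39a1 and Slc39a13 had log2 fold changes of 0.003 and 0.15. Of 10 copper genes 0 were called by the 3 tools, with 1 higher and 1 lower before adjustment. They included Sod1, the copper-zinc superoxide dismutase, at log2 -0.11, and the copper chaperone Atox1 at 0.50 (edgeR adjusted p = 0.24).

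**Figure D5:**
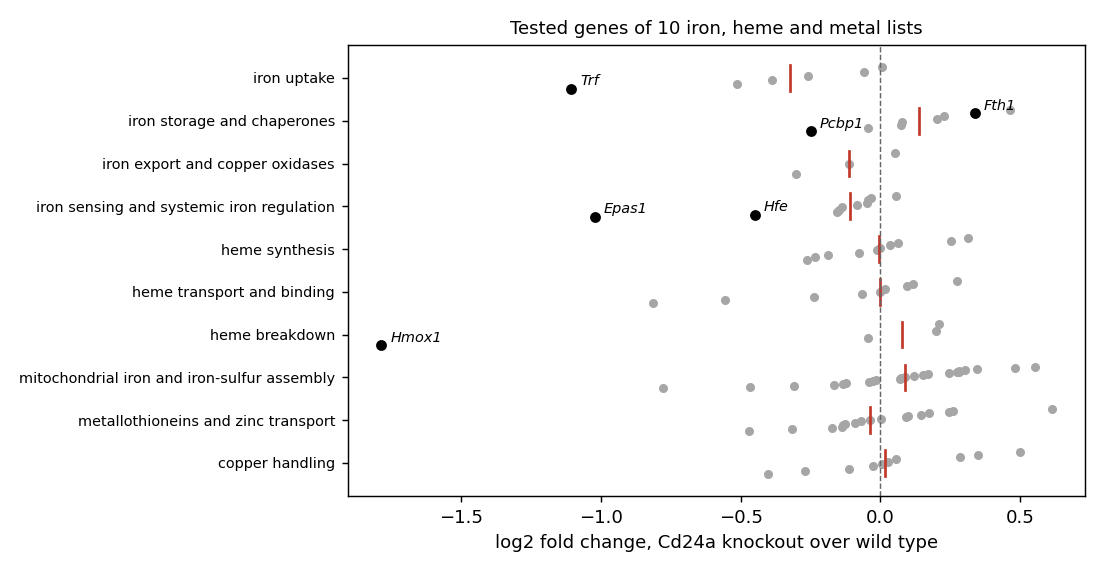
Log2 fold change, knockout over wild type, of every tested gene in 10 lists of iron, heme, zinc and copper genes. Black points are called and named, grey points are not called, and red lines are list medians. Outside the members the called genes are Hmox1, Epas1, Hfe and Pcbp1, all lower.

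Trf and Fth1 kept their calls under all 16 alternatives tried, with log2 fold changes of -1.19 to -0.96 for Trf and 0.28 to 0.44 for Fth1. Without both libraries of the female pattern, an alternative added after seeing the data, Trf was still lower (edgeR adjusted p = 0.0021) and Fth1 at 0.28 (adjusted p = 0.013). In M21, 63.5% of the Trf exon bases are shared with Gm20425 on the same strand, a gene model with no row among the deposited counts.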

How the data were processed

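Whole-lens RNA of 3 Cd24a knockout and 3 wild-type samples was read as stranded total RNA libraries (single end, ribosomal RNA depleted, per the labels' protocols). Per the submitters' processing notes, the tools were HISAT2, HTSeq and edgeR and the build GRCm39, with no version or role given. The authors deposited raw counts per gene on Ensembl features, with an exon length in bp and a GC fraction (not used) per feature. The deposited comparison table holds a signed fold change (a score never between -1 and 1), edgeR p-values with Storey q-values, and group means in FPKM.

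From the counts, genes were filtered with filterByExpr (11474 of 55416 kept), scaled by TMM and compared by quasi-likelihood F tests in edgeR 4.0.16 (limma 3.58.1 for limma-voom, under R 4.3.3), Benjamini-Hochberg adjusted over all genes tested, with calls at an adjusted p of at most 0.05. The SE was derived from F, and 95% intervals use its t distribution. Totals ran from 5384542 to 7302951 counts. Libraries carry no molecular identifiers, so floors cover counting error only. Ratios of counts were compared by exact permutation over 3 against 3 samples. On simulated counts, the fit recovered 6 of 50 genes changed 1.25-fold and 38 of 50 changed 1.5-fold. It recovered 44 of 50 at 2-fold and 49 of 50 at 4-fold, with 4 false calls among 11463 genes tested. Changes near 1.25-fold were thus mostly missed in the simulation. Alternatives were other scalings and filters, DESeq2 1.42.0, limma-voom, a replicate block, a term for Xist reads and leaving out libraries.

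The members and lists were chosen with earlier results of these data known. Named genes were the members, Cd24a, Hmox1, called genes of each list with a mean of at least 1 CPM, the 2 most abundant per kb of each list, ferritin and metallothionein copies, abundant markers, and the 3 genes closest in pattern to 2 members. Cdip1, Gfap, Foxe3, Cpox, Slc40a1, Hamp, Ftmt, Alas2 and Blvra were added after their values were seen. Samples are named by the replicate number of their titles. Labels do not say whether lenses of a sample came from 1 animal, and p-values measure the spread between these samples.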

Additional observations from a re-analysis of the deposited data

How the results depend on the processing

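The counts of members called, 1 higher and 1 lower, were the same in every alternative but library size alone, which gave 2 higher through Hmox2. That scaling moved the median of all genes to 0.114, so its values sit higher by about that amount: 1008 genes were called higher and 336 lower, the members' median was 0.0549, 5 other pathway genes were called higher and 2 lower, and Tfrc, Cp and Ireb2 changed sign to 0.0478, 1.29e-04 and 0.0619. DESeq2 called 219 genes higher and 2 pathway genes lower. Upper-quartile scaling and no low-count filter each called 1 pathway gene higher. Leaving out both libraries with Xist reads left 211 genes called higher and put Ftl1 at -0.0264. Leaving out 1 library at a time gave 194 to 297 genes called higher (194 without knockout replicate 1, 196 without wild-type replicate 1), 0 to 1 pathway genes higher and 1 to 3 lower. Ireb2 ran from -0.0988 to 0.0107 (highest without knockout replicate 1), Tfrc from -0.147 to 0.0545 (highest without knockout replicate 2) and Ftl1 from -0.00160 to 0.137 (lowest without knockout replicate 3). None of these sign changes involved a called gene, and their cause was not tested. Same-numbered libraries did not deviate together (correlations 0.05, -0.03 and 0.03), and the main fit used no pairing. With 3 libraries per group these values cannot decide whether the numbers pair the samples, and replicate 3 held the Xist reads in both groups. With the replicate block, 293 genes were called higher and 488 lower, and 2 pathway genes lower instead of 4 (Hfe at adjusted p = 0.051 and Pcbp1 at 0.053). Depth limits Mt1, Mt2 and Blvrb, at 1 to 20 counts per library.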
